A study of Homo sapiens with 10 samples.

Results

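The D cyclins, their partner kinases and the inhibitors that hold them in check were followed as 10 genes, chosen by symbol: CCND1, CCND2, CCND3, CDK4, CDK6, CDKN2A, CDKN2C, CDKN2D, CDKN1B and RB1. All 10 were found among the 25275 symbols of each of 2 deposited expression tables. The tables hold 6 RNA-seq libraries of 2 established human lines, OCI-LY10 and TMD8, both from diffuse large B-cell lymphoma of the activated B-cell-like (ABC) type. In OCI-LY10 the libraries came from cells with STAT3 shRNA 10, cells with STAT3 shRNA 16 and cells with a control shRNA, 1 library each. All cells had been transduced with an shRNA and given doxycycline at 20 ng/ml for 2 days to switch it on, controls included. The 3 TMD8 libraries carry the same set of shRNAs per the labels, but their table names no column, so TMD8 values are given by column position and no column is tied to a shRNA. The series also has 4 ChIP-seq samples for STAT3, from cells given the JAK inhibitor AZD1480 or DMSO for 4 h, which were not analysed here.

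Cells commit to division late in G1, when cyclins D1, D2 and D3 bind the kinases CDK4 and CDK6 and the active kinase phosphorylates the retinoblastoma protein. Phosphorylated retinoblastoma protein releases E2F factors, which switch on genes for DNA replication. The INK4 proteins bind CDK4 and CDK6 and keep the cyclins off, while p27, the product of CDKN1B, acts on cyclin-CDK complexes. B cells mainly use cyclins D2 and D3, and CCND1 is a textbook target of STAT3 in many cell types.

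Values are FPKM, which divide the fragments of a gene by its length and by the size of the library, so that levels of different genes can be set side by side within a library. Genes averaging 1 FPKM or more in the OCI-LY10 table were tested with limma on log2(FPKM + 1), setting the 2 STAT3 shRNA libraries against the 1 control library. Calls are at a Benjamini-Hochberg adjusted p below 0.05 over 11162 genes. The control has no replicate, so the only error that enters a p-value is the disagreement of shRNA 10 with shRNA 16. FPKM carry no read totals, so the absolute depth of the libraries is unknown. Relative depth could be estimated from low values in OCI-LY10 but not in TMD8. In bulk libraries, fewer cells using a gene and less RNA per cell cannot be told apart.

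STAT3, the targeted gene, stood at 11.1 FPKM with shRNA 10 and 10.6 FPKM with shRNA 16, against 16.5 FPKM with the control shRNA, a log2 change of −0.56 (SE 0.10, limma adjusted p = 0.0465). That call was lost under 3 of 9 alternative settings, at adjusted p = 0.0508 to 0.0736. In the TMD8 columns STAT3 stood at 120.3, 24.3 and 22.5 FPKM by position. The OCI-LY10 control library stood apart from the other libraries of its line: across 10994 genes, Pearson's r of log2(FPKM + 1) was 0.994 between the STAT3 shRNA libraries, 0.845 between either of them and the control library, and 0.936 to 0.961 between the control library and the TMD8 columns. These are descriptions across genes, which are not independent replicates. Every OCI-LY10 change below rests on that 1 control library, and no such comparison exists without it. Whether the library labelled control comes from the line its label names, or was exchanged with another, was not tested. For every change below, an effect of STAT3 shRNA, a difference between lines and any other difference between the libraries cannot be told apart.

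The B-cell markers MS4A1, CD79A, CD79B, PAX5 and CD22 were present in each library, with CD79A at 720.0 and 884.3 FPKM with STAT3 shRNA 10 and 16, against 328.3 FPKM in the control library and 305.2 to 372.8 FPKM in TMD8. These markers did not differ in the same direction: CD22 was at 23.0 and 29.3 FPKM with STAT3 shRNA 10 and 16, against 62.1 FPKM in the control library and 79.4 to 95.8 FPKM in TMD8, and PAX5 at 88.1 and 92.2 FPKM, against 72.3 FPKM in the control library. The 6 T and NK markers summed to at most 0.543 FPKM, with CD3D and CD2 listed at 0 everywhere. The 6 myeloid markers summed to 2.39 and 1.55 FPKM with STAT3 shRNA 10 and 16, against 48.2 FPKM in the control library and 23.4 to 34.9 FPKM in TMD8. CD68 made up most of that, while MPO was listed at 0 everywhere and CD14 did not exceed 0.112 FPKM. The 5 plasma-cell markers summed to 152.8 and 143.3 FPKM with STAT3 shRNA 10 and 16, against 67.0 FPKM in the control library and 116.7 to 137.4 FPKM in TMD8. XBP1 (77.5 and 67.4 FPKM, against 20.7 FPKM in the control library) and TNFRSF17 (39.8 and 35.01 FPKM, against 1.57 FPKM) carried the higher sum. PRDM1 and SDC1 went the other way, PRDM1 at 0.685 and 0.585 FPKM, against 9.39 FPKM in the control library and 23.6 to 31.2 FPKM in TMD8, and SDC1 at 0.251 and 0.301 FPKM, against 3.87 FPKM and 4.34 to 5.27 FPKM. The 6 fibroblast and epithelial markers summed to 5.57 to 8.85 FPKM over the 6 libraries, but they differed in opposite directions. EPCAM was at 4.39 FPKM with both STAT3 shRNAs and listed at 0 elsewhere, while COL1A1 was at 0.00823 and 0 FPKM with STAT3 shRNA 10 and 16, against 3.60 FPKM in the control library, and DCN at 0.0488 and 0 FPKM, against 1.14 FPKM. COL1A2 and KRT8 were also lower with both STAT3 shRNAs than in the control library. Genes of small RNAs took 57.9% and 58.3% of summed FPKM with STAT3 shRNA 10 and 16, against 49.2% in the control library and 22.5% to 43.3% in TMD8. The part of these differences in the results was not tested.

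**Figure D1:**
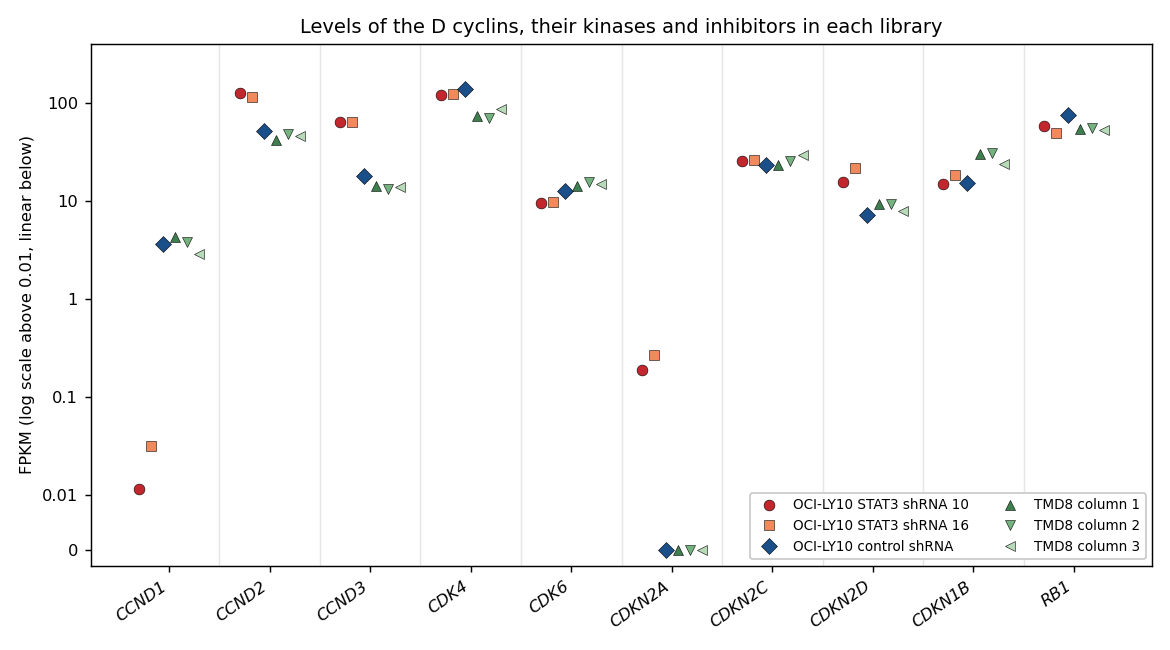
FPKM of the 10 genes (x axis) in the 6 libraries, on an axis that is logarithmic above 0.01 and linear below. For CCND1, CCND2, CCND3 and CDKN2D the OCI-LY10 control library (blue) sits near the 3 TMD8 columns (green) and away from both STAT3 shRNA libraries (red and orange).

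The 3 D cyclins all differed between STAT3 shRNA and control in OCI-LY10, but not in the same direction: CCND2 and CCND3 rose and CCND1 fell. Of the 9 members tested, 2 were called higher, against 20.3% of all tested genes, and 1 was called lower, against 17.4%. These counts are near the background. CDKN2A was too low to be tested.

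CCND2, which encodes cyclin D2, stood at 125.6 FPKM with shRNA 10 and 113.9 FPKM with shRNA 16, against 51.8 FPKM in the control library. Both STAT3 shRNA libraries lay above the control library, and their mean of 119.8 ± 8.30 FPKM (SD, n = 2) was 2.31 times the control value. On the log2 scale CCND2 rose by 1.19 (SE 0.11, limma adjusted p = 0.0194), and 18.8% of tested genes had a larger absolute change.

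CCND3, which encodes cyclin D3, was at 64.6 FPKM with shRNA 10 and 64.2 FPKM with shRNA 16, against 17.9 FPKM in the control library. The STAT3 shRNA libraries hardly differed from each other, and their mean of 64.4 ± 0.251 FPKM (SD, n = 2) was 3.60 times the control value. CCND3 rose by 1.79 on the log2 scale (SE 0.08, limma adjusted p = 0.00969), exceeded in absolute size by 10.1% of tested genes.

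CCND1, the cyclin D1 gene and the D cyclin least used by normal B cells, was at 0.0115 FPKM with shRNA 10 and 0.0316 FPKM with shRNA 16, against 3.69 FPKM in the control library. It was thus low in the control library and close to absent with both STAT3 shRNAs. The fitted log2 change was −2.20 (SE 0.07, limma adjusted p = 0.00753), and 6.99% of tested genes had a larger absolute change. CCND1 passed the filter of 1 FPKM only through the control library. With 1 FPKM added, the 2 values near 0 agree whatever their true spread, so this SE and p-value do not measure that spread. The ratio of shRNA 16 to shRNA 10 was 2.74, while 1 read was worth 1.37 times as much in the shRNA 16 library as in the shRNA 10 library. A ratio of 2.74 is what 2 reads against 1 read would give, so no fold change is stated against these values. The fitted change also depends on the pseudocount, lying between −4.97 with 0.1 FPKM and −0.79 with 5 FPKM.

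**Figure D2:**
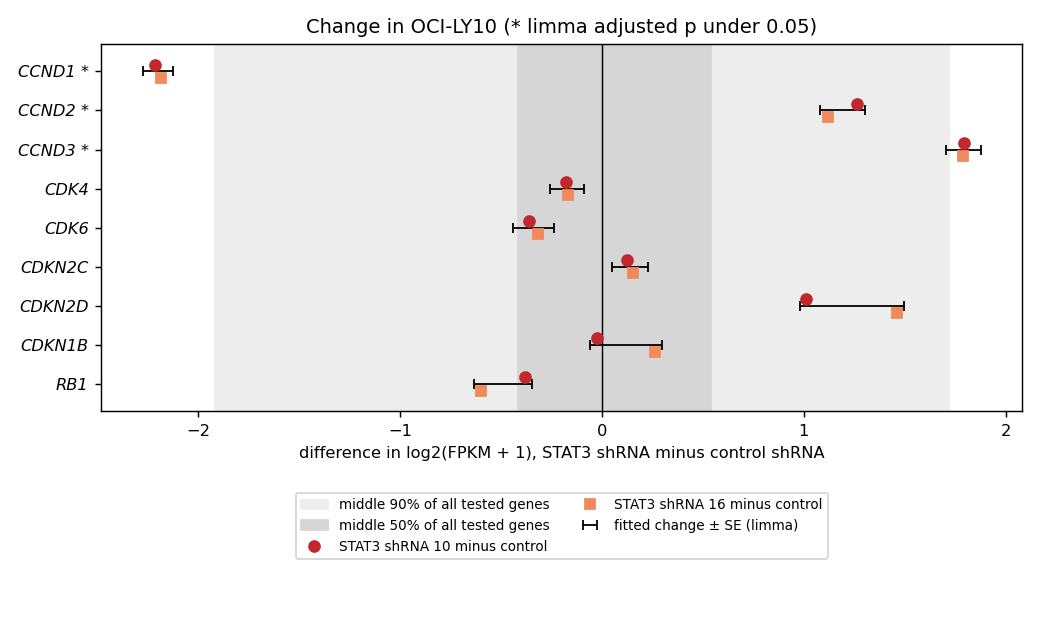
Difference in log2(FPKM + 1) between STAT3 shRNA and control shRNA in OCI-LY10 (x axis) for the 9 members tested, with each shRNA as a point and the limma estimate ± SE as a bar. The shaded bands hold the middle 50% (−0.41 to 0.54) and 90% (−1.92 to 1.72) of all tested genes, and CCND1 and CCND3 lie outside the wider band.

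The summed level of the 3 D cyclins was 190.2 and 178.1 FPKM with STAT3 shRNA 10 and 16, against 73.4 FPKM in the control library. Shares of that sum do not depend on how libraries were scaled. CCND2 made up 66.1% and 63.9% of it with the STAT3 shRNAs, against 70.6% in the control library. CCND3 made up 33.9% and 36.0%, against 24.4% in the control library. CCND1 made up 0.00606% and 0.0177%, against 5.02% in the control library. CCND2 was the leading D cyclin in each OCI-LY10 library.

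The kinases did not pass the test. CDK4, the more abundant of the pair, was at 121.9 and 122.7 FPKM with STAT3 shRNA 10 and 16, against 138.1 FPKM in the control library (log2 change −0.17, SE 0.08, limma adjusted p = 0.205). CDK6, the closely related kinase prominent in blood cells, was at 9.53 and 9.87 FPKM, against 12.5 FPKM in the control library (log2 change −0.34, SE 0.10, limma adjusted p = 0.0987). Both STAT3 shRNA libraries lay below the control library for both genes. CDK4 made up 92.7% and 92.6% of the summed kinase level, against 91.7% in the control library. The summed D cyclins were 1.45 and 1.34 times the summed kinases with the STAT3 shRNAs, against 0.487 times in the control library.

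Of the INK4 inhibitors, which bind CDK4 and CDK6, none passed the test by limma, at unadjusted p = 0.233 for CDKN2C and 0.0230 for CDKN2D. CDKN2C, which encodes p18, stood at 25.5 and 25.9 FPKM with STAT3 shRNA 10 and 16, against 23.3 FPKM in the control library (log2 change 0.14, SE 0.09, limma adjusted p = 0.309). CDKN2D, which encodes p19, stood at 15.5 and 21.6 FPKM, against 7.19 FPKM in the control library. Both STAT3 shRNA libraries lay above the control, but apart from each other by 1.39 times, and the mean of 18.5 ± 4.29 FPKM (SD, n = 2) was 2.58 times the control value. The log2 change of CDKN2D was 1.24 (SE 0.26, limma adjusted p = 0.0571). It passed under 2 of 9 alternative settings, at adjusted p = 0.0160 with small RNA genes left out and 0.00541 with genes listed at 0 left out.

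CDKN2A, which encodes p16 and, from another start site and reading frame, p14ARF, was listed at 0.190 and 0.268 FPKM with STAT3 shRNA 10 and 16 and at 0 in the control library. A value of exactly 0 can be a failed estimate, so no fold is given, and the table does not separate the products. The sources used here do not say that counting used strand, so reads of the antisense gene CDKN2B-AS1 nearby may be included. CDKN2D made up 37.7% and 45.2% of the summed INK4 level with the STAT3 shRNAs, against 23.6% in the control library. The summed INK4 level was 41.2 and 47.8 FPKM with the STAT3 shRNAs, against 30.5 FPKM in the control library, or 0.313 and 0.360 times the summed kinases, against 0.202 times.

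CDKN1B, which encodes p27, was at 15.1 and 18.6 FPKM with STAT3 shRNA 10 and 16, against 15.3 FPKM in the control library. The control value lay between the other 2, and the log2 change of 0.12 (SE 0.18, limma adjusted p = 0.621) did not pass. The summed D cyclins were 12.6 and 9.56 times CDKN1B with the STAT3 shRNAs, against 4.78 times in the control library. RB1, the gene of the retinoblastoma protein, was at 58.1 and 49.8 FPKM with STAT3 shRNA 10 and 16, against 76.0 FPKM in the control library. Both STAT3 shRNA libraries lay below it, and the log2 change of −0.49 (SE 0.14, limma adjusted p = 0.0965) passed under 1 of 9 alternative settings, at adjusted p = 0.0375 with genes listed at 0 left out.

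By the size of the change alone, with no test, 3 of the 9 members were at least 1.5-fold above the control library with both STAT3 shRNAs (CCND2, CCND3 and CDKN2D), against 20.1% of tested genes, and 1 was at least 1.5-fold below it with both (CCND1), against 17.2%. These folds are on the FPKM + 1 scale. The ratios of the 2 shRNAs share the control library, so likeness between them is not counted as a repeat. Set directly against each other, shRNA 16 and shRNA 10 differed by 1.5-fold or more for 0 of the 9 members, against 3.62% of tested genes, with 1 library each and no test. The widest gaps by FPKM + 1 were a log2 difference (shRNA 16 minus shRNA 10) of 0.45 for CDKN2D and 0.29 for CDKN1B.

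**Figure D3:**
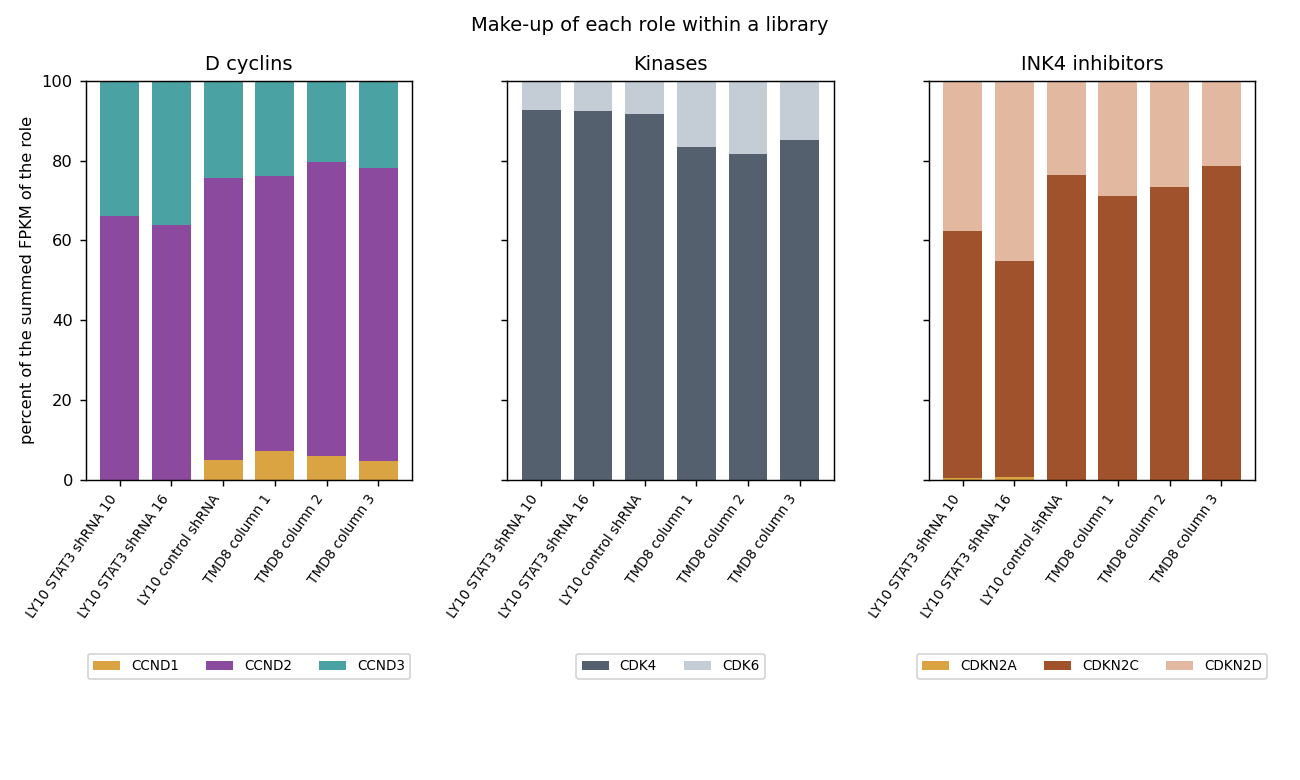
Percent of the summed FPKM of each role (y axis) held by each gene in the 6 libraries, for D cyclins, kinases and INK4 inhibitors. In the STAT3 shRNA libraries of OCI-LY10, CCND1 is not visible and CCND3 and CDKN2D hold larger shares than in the other 4 libraries, while CDK6 holds its largest shares in the 3 TMD8 columns.

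Promoter sequence is shown for the 2 genes that stood at least 1.5-fold above the control library with both STAT3 shRNAs and have an entry in the RefSeq promoter table, CCND3 and CDKN2D. The table (build GRCh38.p14, not the build named for the data) matched 8 of the 10 members in 14 windows. CCND1 and CCND2 had no entry. Each sequence is the 250 bases before an annotated start site. CCND3 has 3 start sites there, and gene-level FPKM does not tell which was used. Capitals mark a match to TTTNNCGC, a loose E2F-like pattern in which N is any base.
CCND3 start site 1, chr6:42048689-42048938, minus strand: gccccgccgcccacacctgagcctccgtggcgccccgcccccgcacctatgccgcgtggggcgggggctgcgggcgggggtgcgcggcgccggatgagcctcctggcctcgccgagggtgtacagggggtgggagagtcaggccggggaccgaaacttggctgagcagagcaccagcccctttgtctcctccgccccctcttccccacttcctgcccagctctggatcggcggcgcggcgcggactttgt
CCND3 start site 2, chr6:41941809-41942058, minus strand: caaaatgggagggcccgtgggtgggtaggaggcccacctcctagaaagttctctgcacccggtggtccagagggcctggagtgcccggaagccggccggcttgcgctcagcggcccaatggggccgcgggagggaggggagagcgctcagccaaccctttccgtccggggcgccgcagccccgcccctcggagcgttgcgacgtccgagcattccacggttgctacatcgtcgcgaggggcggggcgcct
CCND3 start site 3, chr6:41939206-41939455, minus strand: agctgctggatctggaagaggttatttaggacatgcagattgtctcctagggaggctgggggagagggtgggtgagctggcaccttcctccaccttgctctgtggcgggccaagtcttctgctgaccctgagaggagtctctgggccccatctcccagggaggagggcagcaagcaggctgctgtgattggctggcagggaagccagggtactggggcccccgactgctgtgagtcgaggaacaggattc
CDKN2D start site 1, chr19:10568980-10569229, minus strand: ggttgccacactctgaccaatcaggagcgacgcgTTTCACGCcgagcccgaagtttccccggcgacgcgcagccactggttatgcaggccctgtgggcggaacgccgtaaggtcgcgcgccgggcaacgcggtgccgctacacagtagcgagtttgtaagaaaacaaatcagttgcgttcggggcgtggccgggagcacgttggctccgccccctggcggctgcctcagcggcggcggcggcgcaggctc

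The windows were searched on both strands for the STAT motif TTCNNNGAA, which reads the same on both, and for the E2F-like pattern. The STAT motif was found in 1 of the 14 windows, the single window listed for RB1 (chr13:48476200-48476449, plus strand). The match begins 193 bases before that annotated start site. Any RB1 start site without an entry was not searched, and which start site the cells used is not known. Whether this window is the main promoter of RB1 was not checked, so the match is not given as one in that promoter. The STAT motif occurs in 6.57% of 35116 windows of the same length. The E2F-like pattern was found in 1 of the 14 windows, that of CDKN2D, as TTTCACGC beginning 216 bases before the start site. It occurs in 5.92% of all windows. The 3 windows of CCND3 hold neither set of letters. A match is a description of the letters and no measure of binding.

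The 3 TMD8 columns hold a control and both STAT3 shRNAs in an order that is not known, and they differed from each other by a root mean square of 0.108 to 0.234 on the log2(FPKM + 1) scale over the 10 members. CCND2 was at 41.7, 48.0 and 46.1 FPKM in columns 1, 2 and 3, and CCND3 at 14.3, 13.2 and 13.8 FPKM. CCND1 was at 4.33, 3.79 and 2.88 FPKM in the same order. For CCND1 the highest column was 1.504 times the lowest. It was the only 1 of the 9 members above 1 FPKM to reach 1.5-fold, against 17.9% of 10888 genes. Without column 1 or without column 3, 0 members reached 1.5-fold, against 11.3% and 4.67% of genes.

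The other members tested differed by less than 1.5-fold between the highest and the lowest TMD8 column. CDK4 was at 73.1, 70.2 and 86.3 FPKM and CDK6 at 14.4, 15.8 and 15.1 FPKM in columns 1, 2 and 3. CDKN2C was at 23.1, 25.5 and 29.5 FPKM, and CDKN2D at 9.31, 9.26 and 7.93 FPKM. CDKN2A was listed at 0 in all 3 columns. CDKN1B was at 29.9, 31.0 and 24.0 FPKM, and RB1 at 54.9, 55.9 and 52.9 FPKM. The ratio of highest to lowest was 1.29 for CDKN1B and 1.06 for RB1. STAT3 itself spread 5.36-fold over the same columns. The columns are tied to no shRNA, so none of these values is a test of STAT3 depletion.

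Set against TMD8, the OCI-LY10 STAT3 shRNA libraries differed most in the D cyclins. The 2 tables may have been scaled separately, so levels across them are described and not tested. Of the 9 members at a mean of 1 FPKM or more over the 6 libraries, 3 were at least 1.5-fold above every TMD8 column in both STAT3 shRNA libraries (CCND2, CCND3 and CDKN2D), against 19.6% of 11340 genes. Another 1 (CCND1) was at least 1.5-fold below, against 23.6%. The mean of the STAT3 shRNA libraries was 2.60 times the TMD8 median for CCND2, 4.68 times for CCND3 and 2.00 times for CDKN2D.

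The OCI-LY10 control library met the same rule for other genes. CDK4, at 138.1 FPKM against 70.2 to 86.3 FPKM in TMD8, was the 1 member at least 1.5-fold above every TMD8 column, against 10.1% of genes. CDKN1B, at 15.3 FPKM against 24.0 to 31.0 FPKM in TMD8, was the 1 member at least 1.5-fold below, against 14% of genes. With median-of-ratios scaling of the 6 columns, CDKN1B no longer met the rule. The D cyclins of the control library were 0.973 (CCND1), 1.12 (CCND2) and 1.30 (CCND3) times the TMD8 median. CDK4, CCND2 and CCND3 were higher, and CDK6 and CDKN1B lower, in all 3 OCI-LY10 libraries than in every TMD8 column. For CDK6 the values were 9.53 and 9.87 FPKM with STAT3 shRNA 10 and 16 and 12.5 FPKM in the control library, against 14.4 to 15.8 FPKM in TMD8. The share of all genes that do so was not counted. CDK4 made up 81.6% to 85.1% of the summed kinase level in TMD8, below the 91.7% to 92.7% of the OCI-LY10 libraries, a share within a library that does not depend on scaling.

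**Figure D4:**
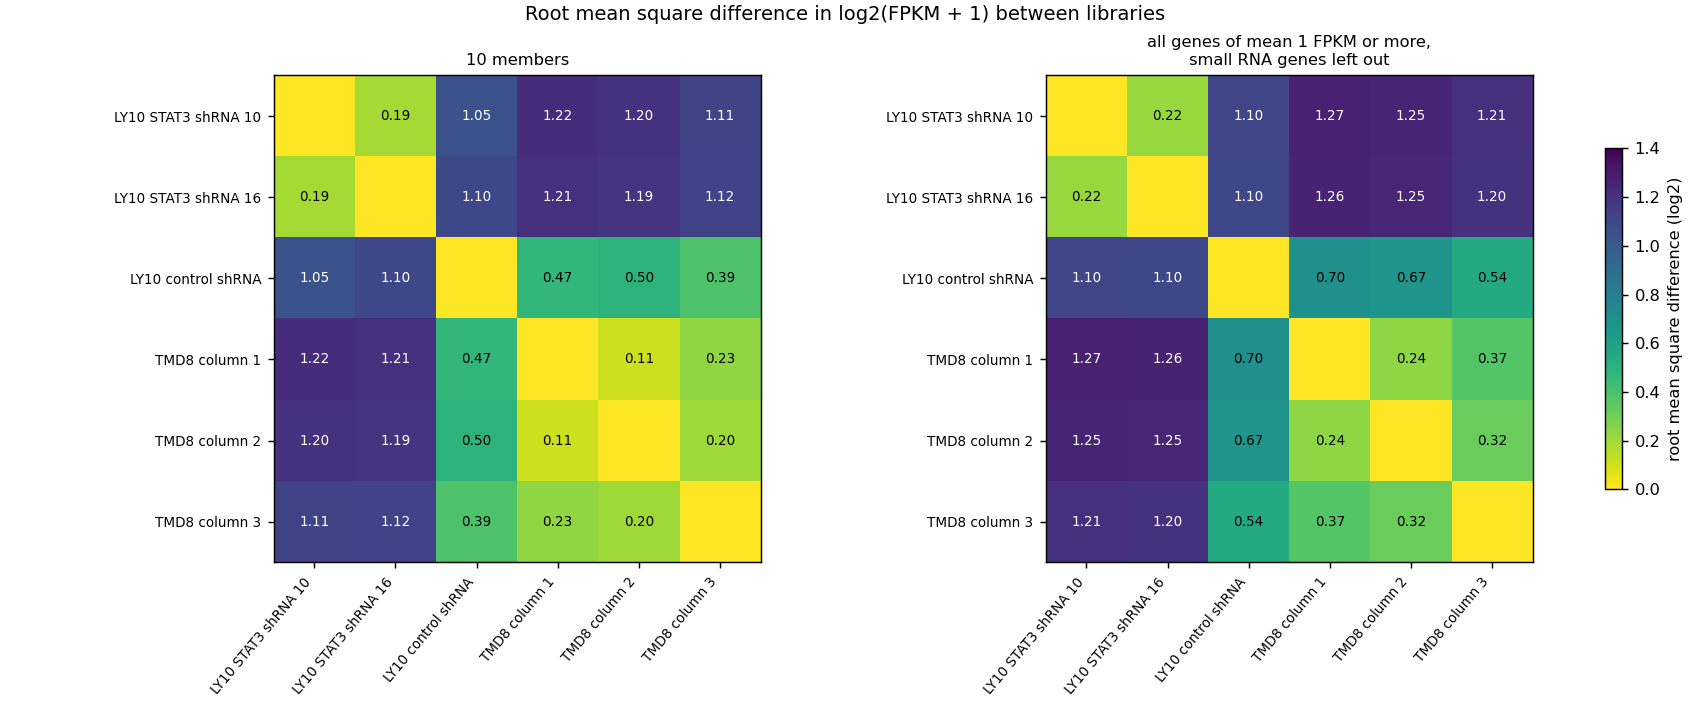
Root mean square difference in log2(FPKM + 1) between each pair of libraries, over the 10 members (left) and over 10994 genes (right), with low values in yellow. The OCI-LY10 control library lies at 0.39 to 0.50 from the TMD8 columns and at 1.05 and 1.10 from the STAT3 shRNA libraries over the members, and the whole table shows the same order.

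Over the 10 members, the control library differed from the STAT3 shRNA libraries by a root mean square of 1.05 and 1.10 on the log2(FPKM + 1) scale, and from the TMD8 columns by 0.388 to 0.497. The STAT3 shRNA libraries differed from each other by 0.191. Gene by gene, the control value was nearer to the TMD8 median than to the mean of the STAT3 shRNA libraries for 7 of 9 members, against 59.5% of 11340 genes. The 2 exceptions were CDK4 and CDKN1B. This count was chosen after the values were seen. Changes between STAT3 shRNA and control are therefore given as differences between libraries as labelled, and could be differences between lines if a label is wrong, which was not tested.

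The order of levels placed CDK4 at the top in TMD8, followed by RB1 and CCND2, whose ranges over the columns did not overlap. CDKN1B and CDKN2C came next, with overlapping ranges of 24.0 to 31.0 and 23.1 to 29.5 FPKM. CDK6 and CCND3 followed at 14.4 to 15.8 and 13.2 to 14.3 FPKM, then CDKN2D, CCND1 and CDKN2A. The control library of OCI-LY10 also ran CDK4, RB1, CCND2. With the STAT3 shRNAs, CCND2 and CDK4 shared the top, in opposite order in the 2 libraries, and CCND3 stood above RB1 in both.

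Other genes of the G1-S pathway were counted from a list of 19, of which 17 were tested and CDKN1C and CDKN2B were too low. With STAT3 shRNA, 6 were called higher and 1 lower, against 20.3% and 17.4% of all tested genes. The median log2 change was 0.53, against 0.06 over all tested genes. E2F2, an activator E2F, was at 19.1 and 16.5 FPKM with STAT3 shRNA 10 and 16, against 0.799 FPKM in the control library (log2 change 3.38, SE 0.15, limma adjusted p = 0.00894). E2F2 passed the filter of 1 FPKM only through the STAT3 shRNA libraries. Its fitted change depends on the pseudocount, lying between 4.31 with 0.1 FPKM and 1.97 with 5 FPKM. E2F5, a repressor E2F, was at 26.0 and 25.8 FPKM, against 10.9 FPKM (log2 change 1.17, SE 0.09, limma adjusted p = 0.0159). CCNE1, the cyclin E1 gene, fell to 12.94 and 13.02 FPKM, against 21.6 FPKM in the control library (log2 change −0.69, SE 0.09, limma adjusted p = 0.0299). E2F4, the other gene the naming rule took, rose by 0.58 on the log2 scale (limma adjusted p = 0.0478), a call lost under 4 of 9 alternative settings. The count of higher genes was 4 without the filter on low values and 9 with small RNA genes left out. It was 5 with median-of-ratios scaling, with quantile normalization and with no variance trend. With genes listed at 0 left out, 10 were called higher and 2 lower.

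Of 24 regulators of the D cyclins, their kinases and inhibitors, 23 were tested, and 5 were called higher and 5 lower (median log2 change −0.14). Among all tested genes, 20.3% were called higher and 17.4% lower. KLF2, a quiescence-associated transcription factor, was at 7.01 and 6.29 FPKM with STAT3 shRNA 10 and 16, against 0.685 FPKM in the control library, and at 11.2, 9.20 and 2.84 FPKM in the TMD8 columns. KLF2 passed the filter of 1 FPKM only through the STAT3 shRNA libraries. Its log2 change of 2.18 depends on the pseudocount, lying between 3.10 with 0.1 FPKM and 1.03 with 5 FPKM. FOXO1, a transcription factor that promotes CDKN1B transcription, was at 11.5 and 10.9 FPKM, against 4.08 FPKM in the control library. BMI1, a Polycomb repressor of CDKN2A, was at 6.02 and 5.50 FPKM, against 10.6 FPKM in the control library. In the TMD8 columns BMI1 was at 39.7, 39.9 and 11.0 FPKM by position. SERTAD1, which binds CDK4, was at 5.32 and 4.64 FPKM with STAT3 shRNA 10 and 16, against 9.18 FPKM in the control library. Limma adjusted p-values were 0.0111 for KLF2, 0.0174 for FOXO1, 0.0343 for BMI1 and 0.0426 for SERTAD1. Without the filter on low values, the 5 lower calls fell to 0 (limma), while 7 had an unadjusted p below 0.05. With a pseudocount of 0.1 FPKM, or with small RNA genes left out, 2 were called lower, and with a minimum mean of 5 FPKM 3 were called higher. The call of BMI1 was lost without the filter, and that of SERTAD1 there and with the pseudocount of 0.1 FPKM.

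Of 20 S-phase genes, which E2F factors control, 7 were called higher and 1 lower with STAT3 shRNA (median log2 change 0.49). CHAF1A, of chromatin assembly, was at 37.3 FPKM with either STAT3 shRNA, against 13.6 FPKM in the control library. MCM2, of the replicative helicase, was at 167.8 and 174.7 FPKM, against 91.8 FPKM, while TYMS, of thymidylate synthesis, fell to 43.0 and 44.6 FPKM, against 84.4 FPKM. Limma adjusted p-values were 0.0130, 0.0207 and 0.0198 in that order of genes. The count of higher S-phase genes was 4 without the filter on low values and 11 with genes listed at 0 left out.

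Of 20 genes of G2 and mitosis, 1 was called higher and 3 lower (median log2 change −0.03). CCNF, the cyclin F gene, was at 32.8 and 33.3 FPKM with STAT3 shRNA 10 and 16, against 19.7 FPKM in the control library. AURKB, a mitotic kinase gene, was at 52.5 and 61.2 FPKM, against 132.5 FPKM. NUSAP1, of the spindle, was at 50.5 and 45.2 FPKM, against 93.1 FPKM, and UBE2C, of the mitotic ubiquitin pathway, at 125.8 and 126.1 FPKM, against 179.0 FPKM. Limma adjusted p-values were 0.0262, 0.0252, 0.0268 and 0.0397 in that order of genes. With small RNA genes left out 5 were called higher, with genes listed at 0 left out 2 were, and without the filter on low values 0 were called lower (limma), 3 at an unadjusted p below 0.05. The call of UBE2C was also lost with small RNA genes left out. Shares of called genes over the whole table were 20.3% higher and 17.4% lower, as above, and no list was tested as a whole.

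**Figure D5:**
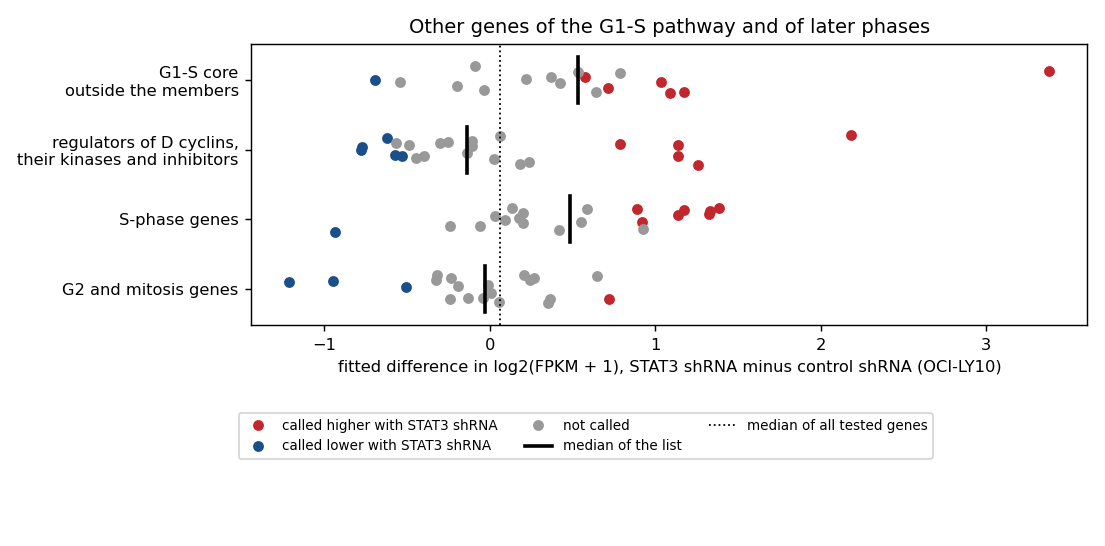
Fitted change in log2(FPKM + 1) between STAT3 shRNA and control shRNA in OCI-LY10 (x axis) for each tested gene of the 4 lists, coloured by limma call, with list medians as bars and the median of all tested genes as a dotted line. Medians of the G1-S core (0.53) and S-phase (0.49) lists lie right of the dotted line at 0.06, and those of the regulators (−0.14) and of G2 and mitosis (−0.03) left of it.

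The genes whose pattern over the 6 libraries was nearest to each D cyclin were found by the root mean square difference of centred log2(FPKM + 1) values among 11339 genes. Nearest to CCND1 were ANXA4, an annexin gene (0.0903), CSTB, which encodes the protease inhibitor cystatin B (0.0991), and PDE4A, a cAMP phosphodiesterase gene (0.12). Nearest to CCND2 were XPO5, the exporter of miRNA precursors (0.0512), LOC146880 (0.0600) and ZBTB24 (0.0603). Nearest to CCND3 were FSTL5 (0.0414), SLC5A11 (0.0691) and ZNF506 (0.0802). FSTL5 stood at 22.5 and 22.8 FPKM with STAT3 shRNA 10 and 16, against 5.87 FPKM in the control library, and at 4.17 to 4.99 FPKM in TMD8. The 6 libraries fall into 2 clusters, the STAT3 shRNA libraries of OCI-LY10 and the other 4, so no correlation is given, and any gene that separates the clusters by a like amount lies near.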

How the data were processed

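RNA-seq values of 2 lymphoma lines were used as the authors deposited them, in FPKM, with 1 value per gene and library. Per the submitters' processing notes, reads were handled with TopHat and Bowtie2 on build hg19. Per the labels' protocols, cDNA was made with an Illumina TruSeq kit. How FPKM were computed, with which annotation, scaling or strand setting, is not given in the sources used here. OCI-LY10 columns were matched to samples by name. The 3 TMD8 columns bear no names and were tied to the line alone, because the labels of the 3 TMD8 RNA-seq samples name that table.

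Rows of 2 repeated symbols were summed. Genes of mean 1 FPKM or more were fitted on log2(FPKM + 1) by limma 3.58.1 under R 4.3.3, as a two-sided moderated test whose variance prior follows expression, with 1 residual and 1.64 prior degrees of freedom. The script was tested on simulated data in which the control had the same spread as the STAT3 shRNA libraries. The spread of the real control is unobserved, so that run does not show how reliable the calls here are. The log2(FPKM + 1) scale understates the change of low genes. The members, gene lists and rules were chosen with earlier results of these data known. Named genes were the members, STAT3, the 2 highest and 2 lowest changes among called genes of each list, and the 3 nearest patterns of each D cyclin. Of the genes these rules and the marker lists take, 2 are not reported here. Alternatives covered pseudocounts, filters, scaling, small RNA genes, genes listed at 0 and the variance trend.

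FPKM gives no read total. Ratios of values under 0.1 FPKM gave a depth relative to the shRNA 10 library of 1.52 for the control library and 0.731 for shRNA 16. In TMD8 low values did not fall on steps of whole reads (6.68% and 12.0% near a ratio of small whole numbers), so its depth is unknown. Nothing says that libraries came from separate cultures.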

Additional observations from a re-analysis of the deposited data

How the results depend on the processing

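The calls of CCND2 and CCND3 held under all 9 alternative fits (limma adjusted p up to 0.0488 and 0.0274). That of CCND1 held under the 8 that tested it, but with both STAT3 shRNA values near 0 this is not counted as support. With a minimum mean of 5 FPKM, CCND1 was not tested and 0 members were called lower. With genes listed at 0 left out, 5 members were called, 2 of them lower, because CDKN2D and RB1 joined. CDK4, CDK6, CDKN2C and CDKN1B were called under none of the 9. With 1 STAT3 shRNA left out, no tested member changed direction except CDKN1B (−0.02 on the log2 scale without shRNA 16), which was never called, and no test exists. Over all genes, 1299 were called higher without the filter and 3547 with small RNA genes left out, against 2263, and 1178 were called lower at a minimum mean of 5 FPKM, against 1943. Leaving out small RNA genes moved the median change of all genes to 0.19, against 0.06. In TMD8, 0 members spread at 2-fold or at a minimum mean of 5 FPKM, and 0 to 1 with a column left out. The control library stood apart from TMD8 for 0 members at 2-fold and 1 with median-of-ratios scaling, against 2. The cause of these shifts was not tested. No paired analysis was possible because the control has 1 library. The lack of a control replicate limits every OCI-LY10 call, and CCND1 and CDKN2A with few reads cannot carry a fold.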
